A study of Mus musculus with 9 samples.

Results

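The comparison of wild type with Rag1 mice rests on 6 of the 9 Affymetrix arrays in the series, namely the 3 titled B6 and the 3 titled Rag1. Each array measured RNA of distal small intestine, and every mouse had carried Bacteroides thetaiotaomicron, a common member of the gut microbiota, for 10 days. The intestine had been divided into 16 pieces and a fixed set of distal pieces was pooled whole, so epithelium, lymphocytes, muscle and nerve were measured together. B6 mice, listed as wild type, form the first group, and mice named for Rag1 form the second. The labels give no allele or genetic background of the Rag1 mice and no sex, age, time of day or number of animals per array, so each p-value reflects only the spread among these arrays, which may be technical. The 3 arrays of the remaining group, titled BP and also labelled as Rag1 tissue, were not part of the comparison and are used only where stated.

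Rag1 encodes a recombinase that joins antibody and T cell receptor gene segments, and mice without it have no mature B or T cells. In the intestine of ordinary mice, plasma cells below the epithelium secrete dimeric IgA, which the epithelial receptor Pigr carries into the lumen. T cells that lie between epithelial cells hold granzymes and release interferon gamma, which induces antigen presentation genes and GTPases that attack intracellular microbes. The epithelium also makes its own antibacterial lectins, and innate lymphoid cells, which do not need Rag1, can induce them.

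Vil1, which builds the microvilli of enterocytes, was bright in both groups, between 5619 and 5770 in Rag1 and between 5530 and 6270 in wild type. The ratio of 3-prime to 5-prime beta-actin signal, which grows as RNA shortens, was 1.53, 1.69 and 1.77 on Rag1 replicates 1, 2 and 3. It was 3.25, 1.76 and 4.17 on wild type replicates 1, 2 and 3, so only wild type replicate 2 lay within the range of the Rag1 arrays. Array medians ran from 29.4 to 37.4. Sex and group could not be told apart: the brightest probe set of Xist, the RNA of the inactive X chromosome, lay between 5.84 and 24.1 in Rag1 tissue and between 1086 and 1539 in wild type tissue. One of the other Xist probe sets was higher too (2.24) and one did not pass (-0.24, adjusted p = 0.726). The Y-linked Eif2s3y and Kdm5d were lower in wild type (-2.08 and -1.90), and the Y-linked Uty did not pass (-0.61, adjusted p = 0.471). The Rag1 probe set was too dim to be tested, at 1.37 to 2.69 in Rag1 tissue and 3.54 to 17.6 in wild type tissue. Whether it lies outside the altered stretch of the gene is not known here, so it does not check the labels.

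In wild type intestine, the genes that rose included antibody genes, T cell receptor chains, cytotoxic granule genes, antigen presentation genes and interferon-induced genes. The antibacterial lectins Reg3g and Reg3b, the acute-phase proteins Saa1 and Saa2 and 7 genes of an epithelial barrier list were among those that fell. The barrier list was drawn up with earlier results of these data known. Values per array are deposited intensities, and differences are wild type minus Rag1 on the log2(intensity + 16) scale after quantile normalization, given with their standard error and called where the adjusted p was under 0.05. With 1 probe set per gene, 133 of 13575 genes were higher in wild type (0.98%) and 79 were lower (0.582%) in limma, 1.56% of the genes in all. Of the 133 higher genes 81 differed by more than 2-fold, with a median log2 difference of 1.17, and of the 79 lower genes 41 did, with a median of -1.10. Over probe sets the counts were 216 higher (0.799%) and 135 lower (0.5%) of 27022, together 1.3%. All 3 wild type arrays lay above all Rag1 arrays in 10.5% of genes, called or not, and below them in 8.55%. With values as deposited the split was 170 higher and 177 lower. When all 9 arrays were fitted together, with the larger spread of the BP arrays, 70 probe sets were higher (0.259%) and 19 lower (0.0703%). Of the genes called with 6 arrays, 44 of the 133 higher and 10 of the 79 lower kept their call there. The counts also moved with single arrays. Leaving out wild type replicate 2 gave 372 higher and 670 lower, wild type replicate 1 gave 102 and 55, wild type replicate 3 gave 122 and 69, Rag1 replicate 1 gave 117 and 48, and Rag1 replicate 2 gave 160 and 63. With wild type replicate 2 as the only wild type array, a fit that takes its spread from the Rag1 arrays alone, 0.468% of genes were called higher and 0.445% lower, among them 53 of the 133 higher genes and 27 of the 79 lower genes. With the actin ratio as a covariate (0.575% called higher, 0.501% lower) these numbers were 59 and 29.

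**Figure D1:**
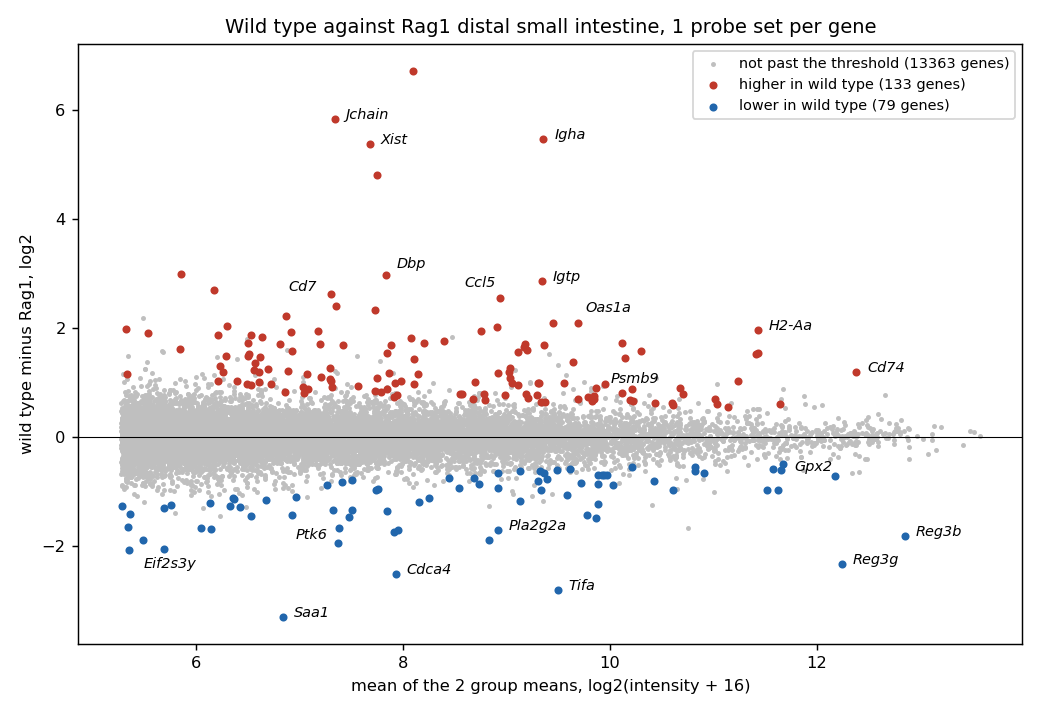
Difference between wild type and Rag1 (vertical axis, log2) against mean brightness (horizontal axis, log2 of intensity plus 16) for 13575 genes, each shown by its brightest probe set. Red points are the 133 genes higher and blue points the 79 genes lower in wild type, and antibody genes lie farthest above 0 while Saa1 lies farthest below.

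Antibody genes showed the largest differences of the comparison. Igha, which encodes the constant part of the IgA heavy chain, read 93.4, 89.7 and 83.4 on the Rag1 arrays and 4947, 2583 and 6389 on the wild type arrays. The groups lay far apart, with wild type replicate 2 the lowest of its group, and the difference was 44.0-fold (log2 5.46 ± 0.26, SE, n = 3 per group; adjusted p = 2.73e-07 in limma). The other 2 probe sets of Igha differed by 6.89 and 7.56 on the log2 scale. Jchain, which joins IgA units into dimers, read 2.53, 11.1 and 3.67 against 1446, 472 and 2546, a log2 difference of 5.83 ± 0.44 (adjusted p = 2.02e-05; 4.53 with wild type replicate 2 alone). The kappa light chain segment Igkv8-30 was higher by 6.71 and the lambda segment Iglv1 by 2.70. The other Iglv1 probe set stood at 1.59 and was not called.

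Of 16 tested genes of IgA and plasma cells, 4 rose and none fell, with a median log2 difference of 0.64 against 0.017 over all tested genes. The calls were Igha, Jchain, Iglv1 and Creld2, a gene of the unfolded protein response (0.79, adjusted p = 0.0316 in limma). The call of Creld2 depended on single arrays, as given below. The antibody gene Ighm did not pass on its brightest probe set (0.11, adjusted p = 0.855 in limma). Of its 9 tested probe sets, 1 was called higher. Mzb1, Cd79a, Cd79b and Sdc1, markers of the cells that make antibody rather than of antibody itself, did not pass either. Mzb1, a chaperone of IgM and IgA assembly, read 34.2, 42.5 and 26.5 on the Rag1 arrays and 184, 55.9 and 279 on the wild type arrays. The groups did not overlap, yet the spread within wild type was wide and the difference of 1.801 ± 0.41 had an adjusted p of 0.0574. The B cell receptor chains Cd79a and Cd79b stood at 1.47 (adjusted p = 0.0623) and 1.55 (adjusted p = 0.0783), and Sdc1, which plasma cells share with epithelium, at -0.35 (adjusted p = 0.586).

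Among 19 B cell and follicle genes none passed, and the median was 0.30. All wild type arrays lay above all Rag1 arrays in 9 of these 19 genes, against 10.5% of all tested genes. Ms4a1, the B cell surface protein CD20, read 14.9, 18.2 and 23.6 on the Rag1 arrays and 54.3, 48.0 and 48.1 on the wild type arrays. The wild type values were close to each other and well above the Rag1 values, but near the lower limit of the tested brightness, and the difference of 1.04 ± 0.24 missed the threshold (adjusted p = 0.0654). Spib, a transcription factor of B cells and of the M cells over lymphoid follicles, differed by 0.97 (adjusted p = 0.076). In bulk tissue, fewer cells of a type and less RNA per cell cannot be told apart. The summed intensity of 4 plasma cell markers was 49.7 to 82.6 in Rag1 and 3630 to 10175 in wild type, nearly all of it from Igha and Jchain. The dim plasma cell receptor Tnfrsf17 overlapped, at 5.04 to 15.7 and 8.75 to 18.7. The sum of 5 follicle and M cell markers overlapped as well, at 186 to 196 and 190 to 315.

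The CD3 chains of the T cell receptor complex rose in wild type. Cd3e, a signalling chain of the T cell receptor, read 23.9, 27.3 and 21.3 on the Rag1 arrays and 154, 146 and 112 on the wild type arrays. The groups were well separated and similar within themselves, with a difference of 4.11-fold (log2 2.04 ± 0.21, adjusted p = 0.000237). The partner chains Cd3d and Cd3g were higher by 1.91 and 1.86. Cd247, the zeta chain of the same complex, read 42.0, 41.9 and 30.9 against 55.8, 35.9 and 68.4, so the groups overlapped and it did not pass (0.48 ± 0.25, adjusted p = 0.453; 0.013 with wild type replicate 2 alone and -0.0013 with the actin ratio as a covariate). Cd7, a surface protein of T cells and natural killer cells, read 77.2, 31.1 and 57.3 on the Rag1 arrays and 308, 430 and 376 on the wild type arrays, a difference of 2.62 ± 0.23 (adjusted p = 9.01e-05).

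In all, 4 of 13 tested receptor and co-receptor genes rose, with a median of 0.50, and none fell. The co-receptor Cd8a did not pass (0.63 ± 0.22, adjusted p = 0.24), and Cd4 and Cd8b1 were too dim to be tested. Of 28 T cell signalling genes, 2 rose, the actin regulator Coro1a (1.17, and 0.65 with wild type replicate 2 alone) and the integrin Itgae (0.88), which binds intraepithelial lymphocytes to E-cadherin. Both lost the call without Rag1 replicate 1 or wild type replicate 1 or 3, Coro1a also without Rag1 replicate 2 (adjusted p up to 0.13) and Itgae without Rag1 replicate 3 (adjusted p up to 0.118). Rac2, a GTPase of blood cells, was higher by 0.91. The call of Rac2 held only without wild type replicate 2, with adjusted p up to 0.149 on leaving out another array.

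Genes of cytotoxic lymphocytes were already present on the Rag1 arrays and rose further in wild type. Ccl5, a chemokine stored by cytotoxic T cells, read 277, 156 and 170 on the Rag1 arrays and 977, 1297 and 1270 on the wild type arrays. No Rag1 value came near a wild type value, and the difference was 5.87-fold (log2 2.55 ± 0.19, adjusted p = 2.02e-05). The granule protease Gzmb read 172, 122 and 118 against 373, 541 and 559, a difference of 1.82 ± 0.19 (adjusted p = 0.000247). Gzma, its partner protease, was bright in both groups, at 539 to 693 in Rag1 and 1601 to 2227 in wild type, and rose by 1.72. The granule membrane protein Nkg7 and the cytotoxic cell cathepsin Ctsw rose by 1.59 and 1.48. In all 5 of 16 genes of the group rose and none fell, with a median of 0.47. The pore-forming protein Prf1 did not pass (-0.51, adjusted p = 0.417).

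**Figure D2:**
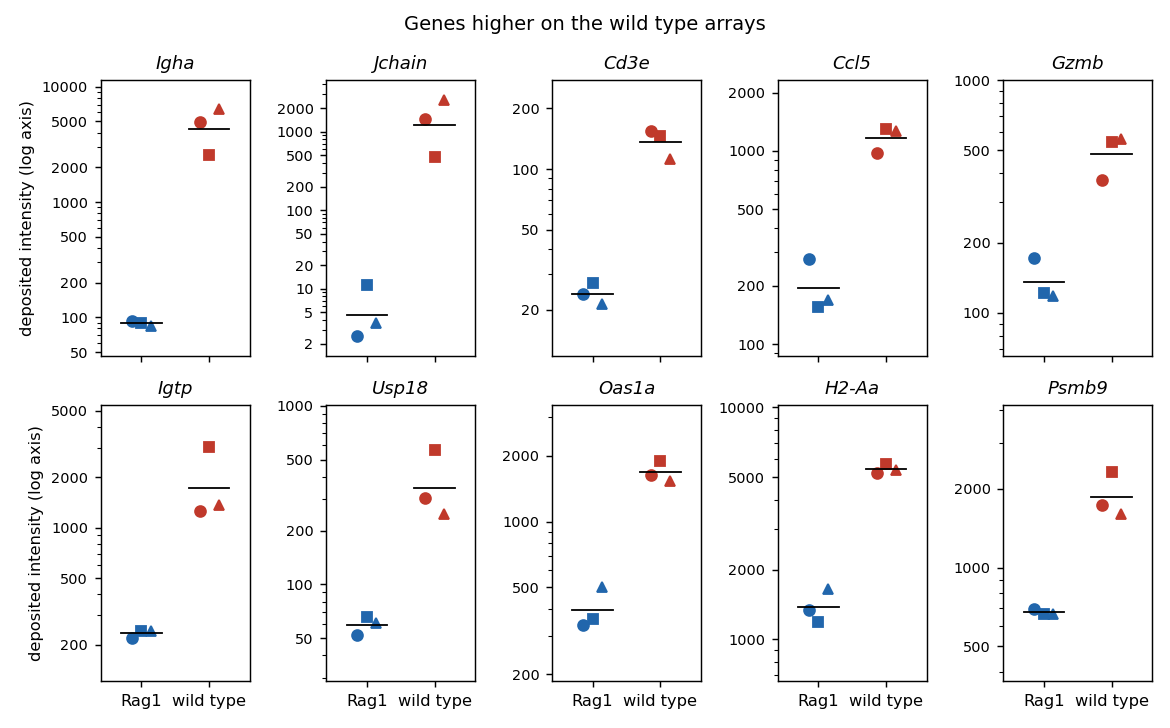
Deposited intensity (log axis) of 10 genes higher in wild type, with 1 point per array and a bar at the geometric mean of each group. Circles, squares and triangles are replicates 1, 2 and 3, and in each panel every wild type array lies above every Rag1 array, with wild type replicate 2 lowest for Igha and Jchain and highest for Igtp, Usp18, Oas1a, H2-Aa and Psmb9.

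Class II antigen presentation rose in its peptide-binding chains and in part of their loading machinery. H2-Aa, the alpha chain of I-A, read 1342, 1194 and 1656 on the Rag1 arrays and 5208, 5689 and 5384 on the wild type arrays, 3.90-fold higher (log2 1.96 ± 0.11, adjusted p = 2.12e-06). The wild type values lay close together, and the other 3 probe sets of H2-Aa were called higher as well. H2-DMa, which loads peptides onto class II molecules, was higher by 2.01 ± 0.15, H2-Ab1 by 1.55 ± 0.12, H2-Eb1 by 1.51 ± 0.12 and the invariant chain Cd74 by 1.195 ± 0.098. These were the 5 of 14 tested class II genes that rose, none fell, and the median was 0.34. Ciita, the master activator of class II transcription, was dim and did not pass (0.44, adjusted p = 0.603). H2-DMb2 did not pass either (0.096, adjusted p = 0.902 in limma, and 1.05 on its other probe set). Nor did Ifi30 (0.072), H2-Oa (-0.033), Ctss (-0.081) or Lgmn (-0.48) of the same list.

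Class II genes are expressed by macrophages, dendritic cells and B cells and, after interferon gamma, by epithelium. Of 28 macrophage and dendritic cell genes 1 rose and none fell, with a median of 0.085. The summed intensity of 5 markers was 6698 to 7734 in Rag1 and 4465 to 7043 in wild type. Most of this sum came from Lyz2 alone, at 5639 to 6599 in Rag1 and 3541 to 5809 in wild type. The ranges of Csf1r, Adgre1, Itgax and Cd68 overlapped between the groups. The summed intensity of 6 B cell markers was 175 to 187 in Rag1 and 260 to 432 in wild type, and their part in the class II rise was not tested. Of these markers Ms4a1, Cd79a and Cd79b were higher on every wild type array, Cd22 and Fcer2a overlapped, and Cr2, a complement receptor of follicles, was lower, at 41.5 to 68.7 in Rag1 and 22.3 to 41.3 in wild type, without passing (adjusted p = 0.587). The 1 that rose, the lysosomal protein Laptm5 (0.74, adjusted p = 0.0336), is shared with lymphocytes, and a dimmer probe set of it stood at -0.84. The Laptm5 call held only without wild type replicate 2, with adjusted p up to 0.146 on leaving out another array.

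Class I presentation rose in the machinery that supplies its peptides. Tap1, which pumps peptides into the endoplasmic reticulum, read 289, 410 and 310 on the Rag1 arrays and 952, 1345 and 775 on the wild type arrays. The groups did not overlap and differed 3.02-fold (log2 1.59 ± 0.21, adjusted p = 0.0024). The immunoproteasome subunits Psmb9 and Psmb8 were higher by 1.46 ± 0.15 and 0.89 ± 0.15, Nlrc5, an activator of class I transcription, by 1.49 ± 0.27, and the second transporter chain Tap2 by 1.01 ± 0.19. The calls of Nlrc5 and Tap2 were lost without any 1 of the Rag1 replicates, that of Nlrc5 also without wild type replicate 3 (adjusted p up to 0.0664) and that of Tap2 without wild type replicate 1 (adjusted p up to 0.11). These 5 rose among 22 tested genes, with a median of 0.32 and none lower. B2m, the common light chain of class I molecules, differed by 0.085 ± 0.14 (adjusted p = 0.856; -0.022 with array weights and -0.096 without wild type replicate 2) and H2-K1 by 0.31 (adjusted p = 0.19), while 1 of the other 3 probe sets of H2-K1 was called higher (0.98). Class I chains resemble each other closely, so these probe sets may read more than 1 gene.

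Interferon-inducible GTPases had the highest median of the gene groups examined. Igtp, also named Irgm3, which guards against vacuole-dwelling parasites, read 218, 241 and 243 on the Rag1 arrays and 1266, 3023 and 1363 on the wild type arrays. The Rag1 values were nearly equal, wild type replicate 2 stood above the other two, and the difference was 7.27-fold (log2 2.86 ± 0.27, adjusted p = 0.000116). Irgm2 read 79.1, 84.7 and 91.1 against 272, 904 and 357, with wild type replicate 2 again highest (2.33 ± 0.32, adjusted p = 0.00279; 3.22 with that array alone). The guanylate-binding protein Gbp6 was higher by 1.95 and Irgm1, a regulator of the other family members, by 1.68. A dimmer probe set of Gbp6 stood at 0.82 and was not called. Ifi47 and Gbp2 were higher by 1.56 and 1.08.

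The promoters of the 2 GTPases with the largest differences are shown because they hold both kinds of site through which interferons act. Sequences are the 200 bases before the first listed start site in the RefSeq promoter table of GRCm38.p6, read 5′ to 3′ on the gene's strand. Capitals mark matches, on either strand, to the interferon-stimulated response element core, spelled GAAA, any 2 bases and GAAA again (bound by interferon regulatory factors), or to the gamma-activated site TTCNNNGAA. The window of Igtp is chr11:58199356-58199555 and that of Irgm2 chr11:58214777-58214976, both on the plus strand.
Igtp: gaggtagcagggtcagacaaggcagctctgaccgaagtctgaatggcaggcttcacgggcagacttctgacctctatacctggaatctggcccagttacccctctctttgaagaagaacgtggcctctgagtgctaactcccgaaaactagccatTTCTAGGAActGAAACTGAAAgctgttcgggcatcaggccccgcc
Irgm2: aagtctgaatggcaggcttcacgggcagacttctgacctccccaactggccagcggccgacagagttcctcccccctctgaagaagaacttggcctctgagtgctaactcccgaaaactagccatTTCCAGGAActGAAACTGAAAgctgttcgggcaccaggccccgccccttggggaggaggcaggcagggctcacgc
In both promoters the gamma-activated site began 11 bases before the response element, 45 and 75 bases before the start of Igtp and Irgm2, and 97 of 105 bases compared without gaps around these sites were identical. The response element core was in 2.33% of 27025 promoter windows of this length, the gamma-activated site in 5.62% and both in 0.244%. A match describes the letters of a window and does not show that a factor binds there.

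Irgm1 (chr11:48871421-48871620, minus strand) held 2 overlapping matches to the response element core and none to the gamma-activated site.
Irgm1: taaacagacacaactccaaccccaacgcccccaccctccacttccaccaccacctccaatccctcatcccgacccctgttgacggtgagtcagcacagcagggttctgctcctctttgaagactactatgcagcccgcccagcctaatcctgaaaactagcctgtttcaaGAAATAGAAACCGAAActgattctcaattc
Of the 6 GTPase genes called higher, 5 had a window in the table, and 4 of these held the response element core. So did the 3 GTPases with a window that were not called, and the window of Tap1, which was called higher, held neither motif. In all 6 of 13 tested GTPases rose and none fell, with a median of 1.08. Iigp1, with the widest spread in wild type, read 55.9, 44.0 and 73.0 on the Rag1 arrays and 109, 442 and 113 on the wild type arrays, and did not pass (1.597 ± 0.39, adjusted p = 0.0801), although its other probe set did. The call of Gbp2 was lost without any 1 of the Rag1 replicates and without wild type replicate 3, with adjusted p up to 0.15.

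Genes known as targets of type I interferon rose as well. Usp18, which dampens signalling from the type I interferon receptor, read 51.7, 65.5 and 60.4 on the Rag1 arrays and 303, 563 and 248 on the wild type arrays, 5.29-fold higher (log2 2.40 ± 0.26, adjusted p = 0.000383). Oas1a, a sensor of double-stranded RNA, read 336, 360 and 504 against 1632, 1904 and 1534 (2.09 ± 0.16, adjusted p = 2.02e-05). Ifit1, which binds viral RNA, read 194, 256 and 191 against 751, 938 and 783 (1.94 ± 0.18, adjusted p = 9.04e-05). For none of these genes did the groups overlap. Bst2, which tethers budding viruses, Rtp4 and the ligase Herc6 were higher by 1.93, 1.76 and 1.72. Dimmer probe sets of Rtp4 and Herc6 stood at 0.94 and 0.81 and were not called. With all 9 arrays, Bst2 and Herc6 did not pass (adjusted p = 0.0522 and 0.363 in limma). In all, 12 of 38 tested genes of this group rose, by 0.98 to 2.40, and none fell, with a median of 0.65.

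The promoters of Oas1a (chr5:120907526-120907725, minus strand) and Ifit1 (chr19:34640689-34640888, plus strand) are shown for comparison with those of the GTPases, with capitals as above.
Oas1a: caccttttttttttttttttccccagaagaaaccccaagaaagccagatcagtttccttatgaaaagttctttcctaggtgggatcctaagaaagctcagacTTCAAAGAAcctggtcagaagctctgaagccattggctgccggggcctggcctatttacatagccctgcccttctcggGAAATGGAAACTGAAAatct
Ifit1: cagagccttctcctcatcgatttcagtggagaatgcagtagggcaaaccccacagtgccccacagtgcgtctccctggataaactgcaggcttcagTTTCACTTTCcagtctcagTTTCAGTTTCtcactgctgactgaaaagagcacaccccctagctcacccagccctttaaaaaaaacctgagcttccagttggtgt
Oas1a held 2 overlapping matches to the response element core that began 20 and 14 bases before the start, and a gamma-activated site 98 bases before it. Ifit1 held 2 separate matches to the core, on the opposite strand, and no gamma-activated site.

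Regulators and effectors of the interferon gamma pathway moved in both directions. Of 27 tested genes, 3 rose and 2 fell, with a median of 0.21. Ido1, which breaks down tryptophan, read 386, 295 and 393 on the Rag1 arrays and 599, 907 and 737 on the wild type arrays (1.07 ± 0.16, adjusted p = 0.00507). The transcription factor Irf1 rose by 0.70 ± 0.11 and Ifi35 by 0.63 ± 0.12, the latter losing its call without any 1 of the Rag1 replicates or wild type replicate 1 (adjusted p up to 0.147). The 2 that fell were Casp4, the caspase that senses lipopolysaccharide in the cytosol, and Nos2, the inducible nitric oxide synthase. Casp4 read 429, 375 and 501 on the Rag1 arrays and 148, 53.4 and 161 on the wild type arrays. Wild type replicate 2 was again the farthest from the Rag1 arrays, the difference was -1.74 ± 0.30 (adjusted p = 0.0145; -2.62 with that array alone), and the call was lost without Rag1 replicate 1 or 2 (adjusted p up to 0.0629).

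**Figure D3:**
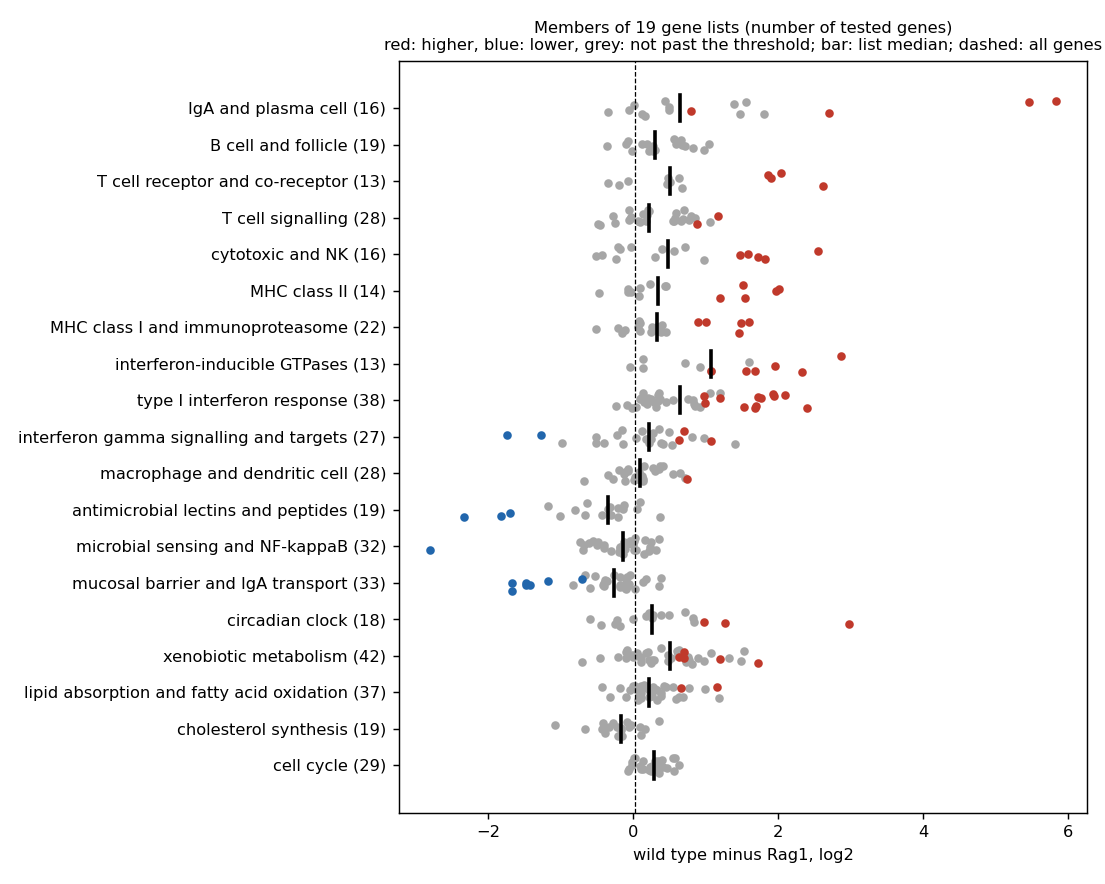
Log2 difference between wild type and Rag1 (horizontal axis) of every tested member of 19 gene lists, with the number of tested genes in brackets. Points are genes (red higher, blue lower, grey not past the threshold), black bars are list medians and the dashed line is the median of all tested genes, 0.017; the GTPase list has the median farthest to the right at 1.08 and the antimicrobial list the median farthest to the left at -0.36.

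Wild type replicate 2 was the highest of its group in 6 of 6 called GTPases, 9 of 12 called type I genes, 5 of 5 called class I genes and 5 of 5 called class II genes. Its median over the GTPase list lay 1.70 above the Rag1 mean, against 0.65 and 0.96 for replicates 1 and 3. The medians over the class II list were 0.40 on replicate 2 against 0.54 and 0.22, so the whole list did not rank the arrays as its called genes did. For IgA and plasma cell genes replicate 2 had the lowest median, 0.43 against 0.79 and 0.81, and was highest in none of the 4 called genes. The receptor list gave 0.37 on replicate 2 against 0.80 and 0.76, with replicate 2 highest in 1 and lowest in 1 of 4 called genes. The cytotoxic list gave 0.53 against 0.55 and 0.45, with replicate 2 highest in 3 and lowest in 1 of 5 called genes. Replicate 2 is also the wild type array with the lowest actin ratio, and the part of RNA quality in this order was not tested. With the actin ratio as a covariate, 8 GTPases, 16 type I genes, 2 IgA and plasma cell genes and 3 receptor genes were called higher, in place of 6, 12, 4 and 4.

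**Figure D4:**
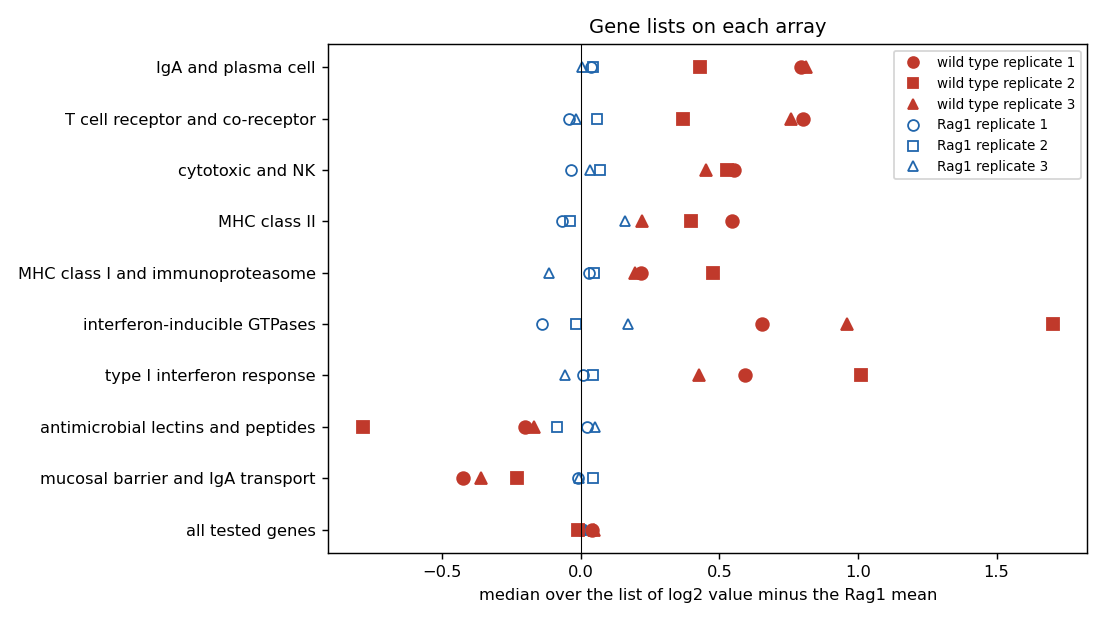
Median over each gene list of the log2 value on an array minus the Rag1 mean (horizontal axis), for 9 lists and all tested genes, with filled red symbols for wild type and open blue symbols for Rag1 arrays. Wild type replicate 2 (square) lies farthest from 0 for the GTPase, type I and antimicrobial lists, at 1.70, 1.01 and -0.79, and is the wild type array nearest to 0 for IgA and T cell receptor genes.

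The main antibacterial lectins of the epithelium went in the opposite direction. Reg3g, which kills Gram-positive bacteria, read 10502, 12147 and 10380 on the Rag1 arrays and 2889, 1484 and 2242 on the wild type arrays. The Rag1 values were tightly grouped, and wild type was 5.05-fold lower (log2 -2.34 ± 0.19, adjusted p = 3.36e-05). Its relative Reg3b read 13363, 14790 and 12480 against 4565, 3610 and 3627, 3.54-fold lower, and the other probe set of Reg3b differed by -1.89 ± 0.14. Pla2g2a, a secreted phospholipase of Paneth cells whose gene is disrupted in C57BL/6 mice, read 928, 668 and 1028 on the Rag1 arrays and 268, 163 and 331 on the wild type arrays (-1.70 ± 0.22, adjusted p = 0.00208).

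These 3 were the only called members of 19 antimicrobial genes, of which 16 had negative values and the median was -0.36. The Paneth cell protease Mmp7 read 2877, 2591 and 3384 on the Rag1 arrays and 1844, 710 and 2213 on the wild type arrays. The groups did not overlap, but wild type replicate 2 stood far below the other two, and the difference did not pass (-1.02 ± 0.31, adjusted p = 0.16). Relative to the Rag1 mean, the list median was -0.79 on wild type replicate 2 against -0.20 and -0.17 on replicates 1 and 3. The sum of 2 Paneth cell markers overlapped, at 11252 to 13446 in Rag1 and 6081 to 11931 in wild type.

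Acute-phase proteins split in direction. Saa1, a serum amyloid A that epithelial cells make in response to attached bacteria and interleukin-22, read 173, 535 and 475 on the Rag1 arrays and 22.7, 15.8 and 20.2 on the wild type arrays. The groups did not overlap, and the difference was -3.30 ± 0.36 (adjusted p = 0.000437), with -3.16 on the other Saa1 probe set. The wild type values were about as low as the 16 added before taking logs, so the size depends on that choice, at -3.999 with 1 added and -2.29 with 64 added. Saa2 read 50.4, 126 and 130 against 5.43, 8.56 and 14.0 (-2.06 ± 0.33, adjusted p = 0.00815). Saa1 and Saa2 are near-identical, so their probe sets may share transcripts, and the Saa2 call was lost without Rag1 replicate 2 or wild type replicate 1 (adjusted p up to 0.061). When all 9 arrays were fitted together, neither Saa1 nor Saa2 passed (adjusted p = 0.255 and 0.528).

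Saa3, which macrophages and epithelium make, had a positive value (1.15 ± 0.26, adjusted p = 0.0623). Mbl2, a mannose-binding lectin of the complement system, rose by 2.21 ± 0.33 (adjusted p = 0.00511, and 0.0539 without wild type replicate 1; 1.46 with adjusted p = 0.284 with wild type replicate 2 alone). The complement inhibitor Cd59a read 125, 130 and 124 on the Rag1 arrays and 386, 361 and 358 on the wild type arrays. Values were nearly constant within each group, and the difference was 1.54 ± 0.15 (adjusted p = 0.00022). Cd59a was also the 1 called gene of 33 tested genes that lie near Rag1 on its chromosome. A dimmer probe set of Cd59a differed by 0.64 and was not called.

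Tifa, an adaptor that links bacterial heptose sugars to NF-kappaB, was among the most changed genes of the tissue. It read 2156, 2209 and 1473 on the Rag1 arrays and 220, 307 and 228 on the wild type arrays, 6.997-fold lower (log2 -2.81 ± 0.18, adjusted p = 6.93e-06). It was the only called member of 32 microbial sensing and NF-kappaB genes, whose median was -0.14. Il18, an epithelial cytokine activated by the inflammasome, read 547, 434 and 362 on the Rag1 arrays and 114, 87.1 and 149 on the wild type arrays (-1.71 ± 0.22, adjusted p = 0.0016). Ccl8, a chemokine for monocytes and other leukocytes, moved up, from 35.9, 53.3 and 62.4 to 185, 138 and 224 (1.70 ± 0.23, adjusted p = 0.00277). These 2 were the only calls among 27 epithelial cytokine and chemokine genes, whose median was -0.091.

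Of 34 genes that make or remove reactive oxygen or nitrogen species, 4 fell and 2 rose, with a median of 0.075. Duoxa2, which brings the peroxide-producing oxidase Duox2 to the cell surface, read 126, 128 and 102 on the Rag1 arrays and 25.8, 15.02 and 26.7 on the wild type arrays (-1.69 ± 0.23, adjusted p = 0.0025). Noxo1, the organizer of the epithelial oxidase Nox1, differed by -0.77 ± 0.15, and Gpx2, the glutathione peroxidase of the crypt, by -0.50 ± 0.11. Nos2 read 59.96, 46.5 and 39.8 on the Rag1 arrays and 6.71, 10.3 and 10.1 on the wild type arrays, near the lower limit of the tested brightness (-1.28 ± 0.25, adjusted p = 0.0291). The 2 that rose were Rac2, described above, and Arg2, an arginase that competes with Nos2 for its substrate, by 0.80 (adjusted p = 0.0457). Noxo1, Gpx2, Nos2 and Arg2 each lost the call on leaving out wild type replicate 1 or 3, and Noxo1, Gpx2 and Arg2 also without Rag1 replicate 1 or 3, with adjusted p up to 0.0902, 0.16, 0.11 and 0.196 in the order named. Nos2 was bright enough to be tested in only 3 of the 6 fits with an array left out.

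**Figure D5:**
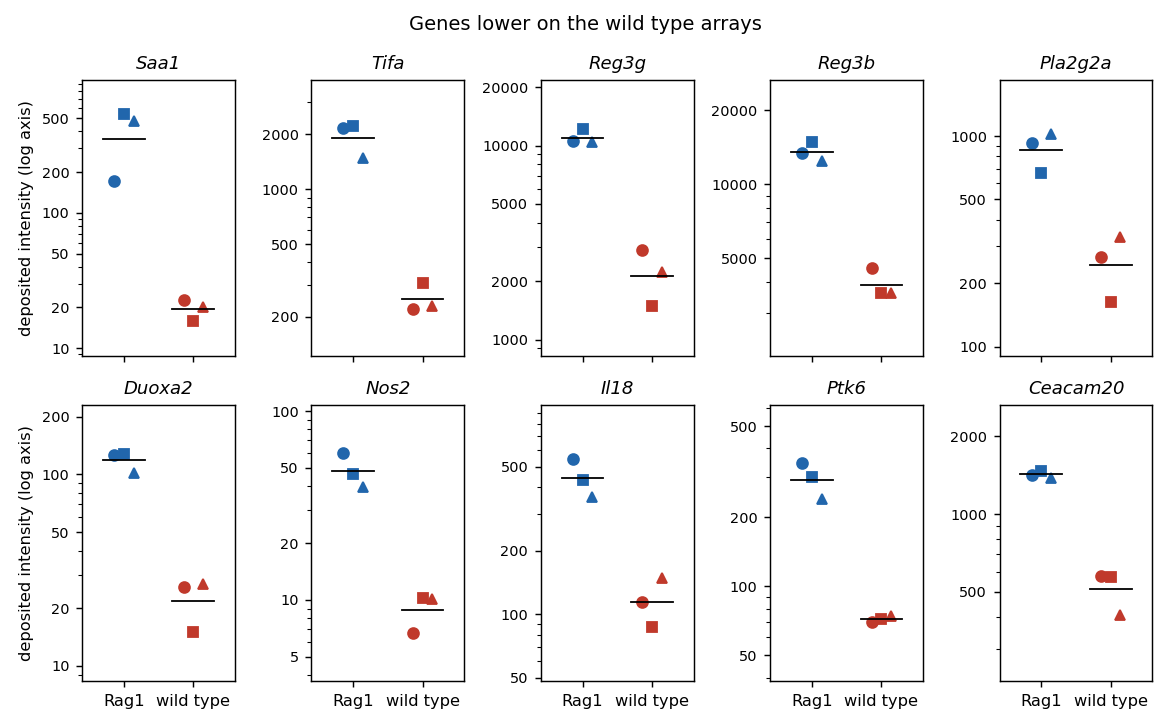
Deposited intensity (log axis) of 10 genes lower in wild type, with 1 point per array and a bar at the geometric mean of each group. Circles, squares and triangles are replicates 1, 2 and 3, and in each panel every wild type array lies below every Rag1 array, for Tifa at 220 to 307 against 1473 to 2209.

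Of 33 tested genes on an epithelial and mucosal barrier list, 7 were called lower and none higher. In the list 28 had negative values and the median was -0.27. The list was drawn up with earlier results of these data known, so its count and median are not independent of them. Its junction genes Cldn3, Cldn7, Tjp1, Ocln and Cdh1 were not called. Ceacam20, an adhesion protein of the microvilli, read 1419, 1473 and 1386 on the Rag1 arrays and 578, 570 and 407 on the wild type arrays (-1.43 ± 0.16, adjusted p = 0.000425). Ptk6, a kinase of differentiating epithelium, read 344, 299 and 240 against 69.7, 72.0 and 74.0 (-1.68 ± 0.18, adjusted p = 0.000439). The membrane scaffold Stom read 1397, 1892 and 1402 against 583, 476 and 546 (-1.48 ± 0.16, adjusted p = 0.000437), and 3 of its other 4 probe sets were called lower too. Slc5a8, which takes up short-chain fatty acids, was lower by 1.17 on the log2 scale, the keratan sulfate synthase B3gnt7 by 1.48 and Soga1 by 1.68, but the second Soga1 probe set was not called (-0.51).

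Ceacam1, an adhesion protein of epithelium and leukocytes, was nearer to Rag1 on the wild type array of low actin ratio than on the other wild type arrays. Its brightest probe set read 5895, 6003 and 5738 on the Rag1 arrays and 3053, 4352 and 3405 on the wild type arrays (-0.71 ± 0.13, adjusted p = 0.0162). Another probe set read 2981, 2995 and 2651 against 534, 1612 and 513, in the same order (-1.85 ± 0.32). With wild type replicate 2 alone the brightest probe set differed by -0.42 (adjusted p = 0.433), and its call was also lost without Rag1 replicate 1 or 2 or wild type replicate 1 or 3 (adjusted p up to 0.105). The part of RNA quality in this result was not tested. The summed intensity of 3 goblet cell markers was 20669 to 24463 in Rag1 and 19760 to 19965 in wild type, and that of 4 villus markers 30892 to 33839 and 33893 to 36356, and the part of such shifts in the barrier genes was not tested either.

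Pigr, which carries IgA to the lumen, read 5924, 6562 and 5719 on the Rag1 arrays and 5872, 4738 and 6245 on the wild type arrays. The groups overlapped and the difference was -0.13 ± 0.12 (adjusted p = 0.717; 0.0067 after median centring). Its other probe set stood at -0.71 (adjusted p = 0.0846). Muc2, the main gel-forming mucin, stood at -0.37 ± 0.10 (adjusted p = 0.114), and none of 25 goblet and enteroendocrine genes passed, with a median of 0.0047. The Wnt target Axin2 fell by 0.93 ± 0.14 (adjusted p = 0.00583), while its other probe set stood at -0.18. Prom1, a marker of crypt base and progenitor cells, fell by 0.81 ± 0.17 and lost the call without any 1 of the Rag1 replicates or wild type replicate 1 (adjusted p up to 0.172). These 2 were the only calls among 18 crypt and stem cell genes, and no gene of 29 in the cell cycle passed (median 0.29). In 12 of these 29 all wild type arrays lay above all Rag1 arrays, against 10.5% of all tested genes.

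Outside these groups the largest decreases were Cdca4 and Mgat4c. Cdca4, a regulator of cell division, read 636, 711 and 425 on the Rag1 arrays and 62.5, 116 and 70.0 on the wild type arrays (-2.51 ± 0.24, adjusted p = 0.000133), but its other 2 probe sets were not called, at 0.20 and at a value that rounds to 0. Mgat4c, related to enzymes that branch N-linked sugar chains, differed by -1.94 ± 0.26.

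Of 18 tested clock genes 3 rose and none fell, with a median of 0.26. Dbp, a transcription factor at the output of the circadian clock, read 59.3, 99.8 and 55.0 on the Rag1 arrays and 860, 544 and 495 on the wild type arrays. The groups were far apart, 7.83-fold (log2 2.97 ± 0.25, adjusted p = 4.89e-05). Its relative Tef rose by 1.27 ± 0.16 on its brightest probe set and stood at -0.17 and -0.47 on the others, and the repressor Nr1d2 rose by 0.98 ± 0.16. The labels give no time of harvest. The Nr1d2 call was lost without Rag1 replicate 1 or wild type replicate 3 (adjusted p up to 0.0604).

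Pck1, the entry enzyme of gluconeogenesis, read 398, 335 and 271 on the Rag1 arrays and 1425, 1526 and 1350 on the wild type arrays (2.08 ± 0.16, adjusted p = 2.02e-05), while its dimmer probe set differed by 0.39 and was not called. It was the 1 called gene of 21 digestion and sugar handling genes. Slc5a4a and Slc5a4b, members of the sodium-glucose transporter family, rose by 1.71 and 1.57. The glucose carrier Slc2a2 read 279, 422 and 36.02 on the Rag1 arrays and 557, 671 and 719 on the wild type arrays. Rag1 replicate 3 stood far below the others, and the difference did not pass (1.83 ± 0.56, adjusted p = 0.167), nor did the fructose carrier Slc2a5 (0.98, adjusted p = 0.0696).

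Markers of position along the gut differed between arrays of the same group. Gata4, a transcription factor of the upper small intestine, read 272, 288 and 119 on the Rag1 arrays and 318, 394 and 299.5 on the wild type arrays (0.70 ± 0.28, adjusted p = 0.307). Fabp6, the bile acid carrier of the ileum, read 6410, 2313 and 10284 against 5060, 6568 and 6858. Rag1 replicate 3 was lowest of all 6 arrays for Gata4 and Slc2a2 and highest for Fabp6, whose groups overlapped (0.18 ± 0.37, adjusted p = 0.887; -0.40 without Rag1 replicate 2 and -0.049 with array weights). Slc5a4a and Slc5a4b were lowest on Rag1 replicate 3 as well, and the part of gut position in their difference was not tested.

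Of 42 xenobiotic metabolism genes 5 rose and none fell, and the median was 0.50. The aldo-keto reductases Akr1c19 and Akr1c13 rose by 1.72 and 1.197, the export pump Abcc2 by 0.70, the glutathione transferase Gstm1 by 0.69 and the cytochrome Cyp2d26 by 0.63. Of 37 lipid absorption and fatty acid oxidation genes 2 rose, the pyruvate dehydrogenase kinase Pdk4 (1.16) and the lipid droplet coat Plin2 (0.65), with a median of 0.21. Each of these 7 genes lost the call without Rag1 replicate 1 and, separately, wild type replicate 1, with adjusted p up to 0.242. Among 24 genes of the unfolded protein response, which plasma cells use heavily, Creld2, Ddit3, Manf and Herpud1 rose by 0.79, 0.77, 0.70 and 0.66 and none fell, with a median of 0.14. These 4 lost the call without Rag1 replicate 1 or 3 or wild type replicate 1 or 3 (adjusted p up to 0.217). None of 19 cholesterol synthesis genes passed. The median of that list was -0.18, and its lowest member, the squalene oxidase Sqle, stood at -1.09 (adjusted p = 0.088).

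No call fell on the lists of the remaining cell types of the gut wall. None of 25 smooth muscle and stroma genes passed (median -0.11), nor any of 13 nerve, pancreas, fat and red cell genes (median -0.12), 5 mast cell and granulocyte genes (median 0.073), 12 ileal bile acid genes (median -0.0066) or 17 immediate early genes (median -0.14).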

How the data were processed

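Per the labels' protocols, 20 ug of total RNA gave labelled cRNA for 1 Affymetrix array per sample. The deposited values were linear intensities computed by the authors, with a lowest value of 1, and neither the software nor any scaling is given in the sources used here, nor are detection calls or batches. Groups and replicate numbers came from the sample titles.

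The 6 arrays were quantile-normalized as log2(intensity + 16), so differences of dim genes are understated. Of 45037 non-control probe sets, the lowest 40% by mean were left out. Group means were compared by limma 3.58.1 under R 4.3.3, with 4 residual degrees of freedom per probe set, an intensity trend and two-sided p-values adjusted by Benjamini-Hochberg over 27022 probe sets, at a threshold of 0.05. Values after ± are standard errors with n = 3 per group. The procedure was tested on simulated data.

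GEO's platform annotation gave 34945 probe sets 1 symbol, 932 several and 9160 none, and the gene identifiers of 34741 probe sets were found in RefSeq's list of mouse genes. Probe sets with several symbols name no gene. Each gene is represented by its brightest tested probe set. Promoter sequences are from RefSeq on GRCm38.p6.

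The BP arrays had a larger spread (median standard deviation 0.44 against 0.21 for Rag1 and 0.23 for wild type), so they were left out of the fit. The comparison, the lists and this choice were made with earlier results of these data known. Named genes are the 20 largest changes per direction without overlap between groups, up to 6 called members of each list per direction, or, in lists without a call, the 2 of smallest p, and a few fixed genes such as Igha, Nos2 and Pigr. Some genes under this rule are left unprinted, and Ighm, which falls outside it, was added after its values were seen. Vil1, Cd4, Cd8b1, Cd247, Tnfrsf17, Cd22, Fcer2a, Cr2, Mzb1, Cd79a, Cd79b, Spib, Sdc1, Cd8a, Prf1, Ciita, B2m, H2-K1, Iigp1, Mmp7, Saa3, Ceacam1, Slc5a4a, Slc5a4b, Slc2a2, Slc2a5 and Fabp6 fall outside it and were chosen after their values were seen. Alternatives were another normalization, pseudocount or filter, all 9 arrays, a replicate block, other moderation, array weights, a minimum fold of 1.5, a threshold of 0.01, an actin ratio covariate, wild type replicate 2 alone, the mean of a gene's probe sets, and each array left out in turn.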

Additional observations from a re-analysis of the deposited data

Results flagged for a closer look

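The BP arrays were not part of the comparison and share the Rag1 arrays as their controls. For 13 named genes that were higher in wild type, all 3 BP arrays also lay above every Rag1 array. The BP mean of each was over 2 times the Rag1 mean, in deposited intensity and without a test. Some margins were narrow, as for Ifit1, at 263 on BP replicate 1 and 256 on Rag1 replicate 2. The BP arrays had 3-prime to 5-prime actin ratios of 14.2, 2.43 and 20.2 against 1.53 to 1.77 for Rag1. The part of RNA quality in the BP values was not tested. Only named genes already called lower in Rag1 than in wild type were screened, on the same Rag1 arrays. The share of all genes meeting this rule was not computed, so no background stands beside these 13 genes. Among interferon-induced genes these were Oas1a (BP mean 1008, Rag1 mean 400.2, wild type mean 1690), Rtp4 (736, 178 and 600 in the same order), Ifit1 (569, 214 and 824), Usp18 (132, 59.2 and 371) and Ifi35 (2259, 1102 and 1715). The chemokine Ccl8 had 485, 50.5 and 182, and the lectin Mbl2 251, 44.1 and 244. Clock and metabolic genes were Dbp (708, 71.3 and 633), Pck1 (1030, 335 and 1434), Pdk4 (209, 81.5 and 179), Akr1c13 (1441, 354 and 770) and Akr1c19 (1287, 182 and 519). Xist had a BP mean of 798 with BP replicates 1, 2 and 3 at 36.02, 624 and 1735, against a Rag1 mean of 18.0. No IgA, T cell, class II or GTPase gene named in the report was among the 13.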

How the results depend on the processing

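Against 216 probe sets higher and 135 lower, the counts moved by over 1.5 times with all 9 arrays (70 and 19), no intensity trend (95 and 45), array weights (485 and 535), a fold of at least 1.5 (55 and 16), a threshold of 0.01 (106 and 50), wild type replicate 2 alone (102 and 85) and, for higher probe sets, an actin ratio covariate (126). Single arrays left out gave 102 to 372 higher and 48 to 670 lower, with both highest values without wild type replicate 2. Median centring, the values as deposited, the pseudocounts 1 and 64, no filter, the 60% filter and robust moderation stayed within 1.5 times. The values as deposited moved the median of all probe sets to -0.12 from -0.011. The replicate block gave 207 higher and 138 lower, but the replicate numbers did not pair the samples: deviations of same-numbered arrays from their group means correlated at -0.10, 0.015 and 0.059. List medians near 0 changed sign: macrophage and dendritic cell genes (-0.069 as deposited, -0.032 with the actin covariate, -0.0014 without Rag1 replicate 2), cholesterol genes (0.0076 without Rag1 replicate 3), reactive oxygen genes (-0.018 with wild type replicate 2 alone), goblet genes (-0.16 with that array alone, -0.24 with the covariate), mast cell genes (-0.067 with 9 arrays, -0.096 with replicate 2 alone) and nerve, pancreas, fat and red cell genes (0.077, 0.12 and 0.15 with 9 arrays, replicate 2 alone and the covariate). The last 4 of these lists were run under those 3 alternatives only. Of 89 named genes past the threshold, 60 passed in every fit with an array left out that tested them. Fits in which a gene was too dim to be tested did not count against it. Eif2s3y passed in 3 of the 6 such fits and Kdm5d in 5. With all 9 arrays, 43 named genes lost the call. Reversed values of genes that had not passed were B2m (-0.022 with array weights, -0.096 without wild type replicate 2, and -0.096 to 0.20 over all arrays left out), Fabp6 (-0.049 with array weights, -0.40 without Rag1 replicate 2, and -0.40 to 0.65 over all arrays left out) and Pigr (0.0067 after median centring) and Cd247 (-0.0013 with the actin covariate; 0.33 to 0.72 over all arrays left out); the cause was not tested. With 3 arrays per group and no detection calls, changes of dim genes such as Nos2, Ms4a1 and Rag1 are least certain.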
